A study of Mus musculus with 9 samples.

Results

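The miR-142 locus is a microRNA (miRNA) gene of blood cells, and its products were followed in small RNA libraries of mouse back skin. The members were the rows of the deposited table named mmu-miR-142a-3p, mmu-miR-142a-5p and mmu-miR-142b (the prefix marks mouse and is left out below), which are 3 of its 1129 rows. The 9 libraries came from skin of adult female C57BL/6 mice aged 6 months, all wounded with a punch of 8 mm diameter under pentobarbital anesthesia. The diabetic group (n = 3) is labelled as skin of a diabetic mouse model, with no statement of how diabetes was induced. The day 7 group (n = 3) is skin from the wound edge on day 7, and the day 0 group (n = 3) is the skin removed by the punch. The day of the diabetic group is unresolved: the sample titles read T7, the column names read T0, and the treatment label speaks of skin taken when the wound was made. For that group, diabetes and the day of sampling cannot be told apart. The labels do not say which libraries share a mouse, so p-values measure the spread between these libraries, which may be technical.

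A miRNA gene is transcribed as a hairpin that is cut into a duplex of 2 arms, named 5p and 3p, either of which can be loaded into an Argonaute protein. The loaded arm pairs with messenger RNAs mainly through its seed, bases 2 to 8, and lowers their translation and stability. miR-142 is known for strong expression across blood cell lineages, including lymphocytes, granulocytes, macrophages, mast cells and platelets, and mice that lack it have defects in several of these lineages. In skin it is read mainly as a miRNA of blood cells rather than of keratinocytes or fibroblasts.

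All 3 members had a mature sequence in the RefSeq table (GRCm38.p6), shown here because miR-142b lies on the strand opposite to the 2 arms of miR-142a. Capitals mark the seed.
miR-142a-3p: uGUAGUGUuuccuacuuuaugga
miR-142a-5p: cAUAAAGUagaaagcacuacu
miR-142b: uCCAUAAAguaggaaacacu
The 3p arm lies at chr11:87756903-87756925 and the 5p arm at chr11:87756867-87756887 on the plus strand, and miR-142b at chr11:87756906-87756925 on the minus strand (GRCm38.p6). Over the 1679 mature miRNA names of that table, 0 others shared a seed with any member.

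The reverse complement of the 3p arm, with the bases equal to miR-142b in capitals, shows how the minus-strand entry relates to it.
Reverse complement of miR-142a-3p: UCCAUAAAGUAGGAAACACUaca
All 20 bases of miR-142b stood inside it. The hairpin itself, with both mature arms in capitals, shows the pairing of the arms, through which miR-142b also resembles the 5p arm.
Mir142 hairpin: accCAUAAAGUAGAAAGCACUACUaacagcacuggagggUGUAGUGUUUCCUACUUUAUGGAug
The predicted fold paired 19 of the 21 bases of the 5p arm with the 3p arm, left 15 bases between the arms and had a minimum free energy of -26.9 kcal/mol. Over the 18 bases where miR-142b and the 5p arm align they differed at 2. In the GENCODE annotation of GRCm38, the hairpin at chr11:87756864-87756927 lies in the intron of the long non-coding RNA gene Mir142hg, between its exons 1 and 2. The nearest protein-coding gene, Tspoap1, starts 3613 bases downstream on the same strand.

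The miR-142b row repeated the miR-142a-3p row. The counts of the 2 rows were equal in 9 of 9 libraries, and each row summed to 8695. The table held 30 such opposite-strand pairs with at least 15 shared bases, of which 20 had 100 or more counts. Of these 20 pairs, 2 were equal in every library and 9 had sums within 10% of each other. Reads of the minus-strand entry and of the 3p arm thus cannot be told apart in this table, and below the values of miR-142a-3p are also those of miR-142b.

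Library totals ran from 2537167 to 5453539 counts, and 667 to 805 rows had a count in a library. The test on the whole table was edgeR's quasi-likelihood test with TMM scaling, which sets a typical miRNA to no change, over the 447 rows that passed a filter on low counts. A row was called at a Benjamini-Hochberg adjusted p under 0.05. Scaling matters here because miR-21a-5p, a miRNA induced in wounds and inflammation, took 13.7% to 19.4% of the counts in the diabetic libraries, 40.6% to 55.6% in the day 7 libraries and 18.6% to 33.2% in the day 0 libraries. TMM factors were 1.01 to 1.37 in the diabetic group, 0.712 to 0.819 at day 7 and 1.02 to 1.26 at day 0. Libraries numbered 2 stood apart in miR-122-5p, a liver miRNA, with 9 to 17 counts against 291 to 420 in the others. Results without these 3 libraries are given for the members and the cell-type lists. For most other named miRNAs they are left out. Without these libraries only 5 rows were called in the diabetic group against day 7 and 1 at day 7 against day 0. Most calls of the other named miRNAs were thus lost too. An exception was miR-223, whose 3p and 5p arms kept their call for the diabetic group against day 7 in all 21 alternatives. Without these libraries neither of its arms passed at day 7 against day 0.

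The labelled tissue was checked against miRNA markers. All 7 keratinocyte miRNAs on the list passed the filter, and their summed level was 63030 to 121900 TPM in the diabetic group, 40690 to 47430 TPM at day 7 and 73100 to 85830 TPM at day 0. Of 5 striated muscle miRNAs, 4 passed the filter. The muscle list summed to 41360 to 133900 TPM in the diabetic group, 35790 to 82260 TPM at day 7 and 46440 to 68380 TPM at day 0. The libraries thus also held muscle miRNAs, at a high and uneven level. Against these, miR-142a-3p ranked between 91 and 133 among the rows of a library and miR-142a-5p between 62 and 96. Both arms had at least 609 counts in every library, so all 3 member rows passed the filter. The Poisson counting error was 2.51% to 4.05% of the count for miR-142a-3p, while the coefficient of variation between libraries was 20.6% in the diabetic group, 14.5% at day 7 and 6.61% at day 0.

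Both arms were most abundant at the wound edge on day 7. miR-142a-3p stood at 141, 166 and 211 CPM in the diabetic libraries, 469, 430 and 351 CPM in the day 7 libraries and 187, 213 and 206 CPM in the day 0 libraries (TMM-scaled, replicates 1, 2 and 3). Every day 7 library lay above all 6 others, and the diabetic and day 0 ranges overlapped. miR-142a-5p stood at 364, 411 and 457 CPM in the diabetic libraries, 1132, 1072 and 824 CPM in the day 7 libraries and 425, 472 and 594 CPM in the day 0 libraries. The same order held for this arm, with day 7 apart and the other groups overlapping. Bulk skin was sequenced, so more blood cells and more of the miRNA per cell cannot be told apart.

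**Figure D1:**
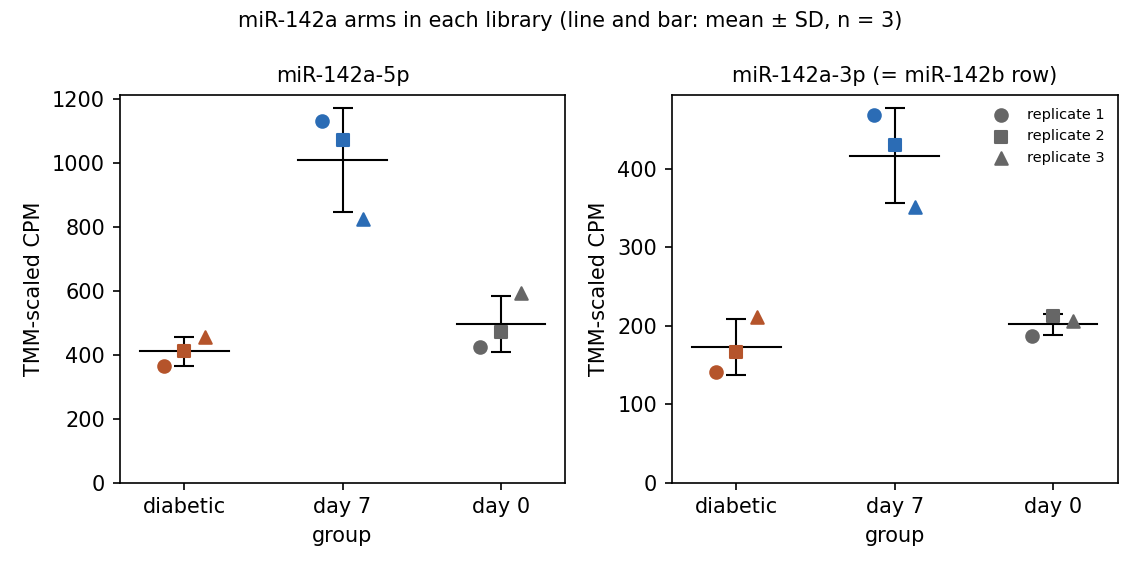
TMM-scaled CPM of miR-142a-5p (left) and miR-142a-3p, whose values are also those of the miR-142b row (right), in each library of the diabetic, day 7 and day 0 groups. Points are libraries, lines are means and bars are SD (n = 3); the day 7 libraries lie above all others in both panels, from 824 CPM for the 5p arm and 351 CPM for the 3p arm.

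Both arms were lower in the diabetic group against day 7. miR-142a-3p averaged 173 ± 35.6 CPM in the diabetic group and 417 ± 60.3 CPM at day 7 (SD, n = 3 each), a 2.42-fold lower level (log2 fold change -1.27 ± 0.19, SE, 95% interval -1.70 to -0.85, edgeR adjusted p = 0.00130). miR-142a-5p averaged 411 ± 46.2 CPM in the diabetic group and 1010 ± 163 CPM at day 7 (log2 fold change -1.30 ± 0.18, SE, edgeR adjusted p = 0.00114). Of all 447 rows, 12.1% were called lower in this comparison (54 rows) and 7.83% higher (35 rows), so both arms were called lower where 12.1% of rows were. Ranges without overlap in this direction occurred in 20.8% of rows.

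At day 7 against day 0, both arms were higher. miR-142a-3p averaged 417 ± 60.3 CPM at day 7 and 202 ± 13.3 CPM at day 0, which is 2.06-fold higher (log2 fold change 1.05 ± 0.19, SE, 95% interval 0.62 to 1.47, edgeR adjusted p = 0.00699). miR-142a-5p averaged 1010 ± 163 CPM at day 7 and 497 ± 87.1 CPM at day 0 (log2 fold change 1.02 ± 0.18, SE, edgeR adjusted p = 0.00630). Of all rows, 8.05% were called higher (36 rows) and 4.70% lower (21 rows), and 18.3% had higher ranges without overlap.

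Neither arm passed for the diabetic group against day 0. miR-142a-3p averaged 173 ± 35.6 CPM in the diabetic group and 202 ± 13.3 CPM at day 0, with a log2 fold change of -0.23 ± 0.19 (SE, 95% interval -0.65 to 0.19, edgeR adjusted p = 0.758). miR-142a-5p averaged 411 ± 46.2 CPM in the diabetic group and 497 ± 87.1 CPM at day 0, with -0.27 ± 0.18 (SE, 95% interval -0.67 to 0.12, edgeR adjusted p = 0.680). Of all 447 rows, 0% were called by edgeR in this comparison, while 8.95% (40 rows) had an unadjusted p under 0.05 and DESeq2 called 5. These values do not show that the diabetic and day 0 groups are alike. The 3 comparisons share their groups, so each is given by its own values.

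The size of these differences depended on the scaling, and the sign did not. On the authors' TPM, which are shares of the library total, miR-142a-3p was at 202 ± 10.8 TPM in the diabetic group, 316 ± 25.1 TPM at day 7 and 223.2 ± 10.3 TPM at day 0 (SD, n = 3 each). With total-count scaling its log2 fold change was -0.65 ± 0.18 in the diabetic group against day 7 (SE, edgeR adjusted p = 0.0132), a 1.57-fold lower level, and 0.50 ± 0.18 at day 7 against day 0, where the call was lost by a small margin (edgeR adjusted p = 0.0505). The 5p arm moved likewise, to -0.66 ± 0.17 (edgeR adjusted p = 0.0111) and 0.48 ± 0.17 (edgeR adjusted p = 0.0506). Without the libraries numbered 2, which leaves 2 libraries a group, miR-142a-3p lost both calls, at -1.24 (edgeR adjusted p = 0.0740) and 1.08 (edgeR adjusted p = 0.192). That total-count scaling also moved the median of all tested rows, to 0.61 in the diabetic group against day 7 and -0.46 at day 7 against day 0, while the medians with TMM were -0.02 and 0.08.

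A scaling shifts all rows of a library together, so a distance from the median row is nearly the same under each by construction. Over the 5 scalings in edgeR, miR-142a-3p lay -1.28 to -1.25 from the median in the diabetic group against day 7 and 0.96 to 0.97 from it at day 7 against day 0. With total counts 174 rows were called higher and 24 lower in the diabetic group against day 7, and 16 higher and 117 lower at day 7 against day 0. On the TPM scale 6.26% of rows had lower ranges without overlap in the diabetic group against day 7, and 6.71% had higher ones at day 7 against day 0, and miR-142a-3p was among the rows in both cases. The diabetic TPM of this arm also lay wholly below day 0, which held for 3.36% of rows, but the ranges overlapped after TMM scaling.

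**Figure D2:**
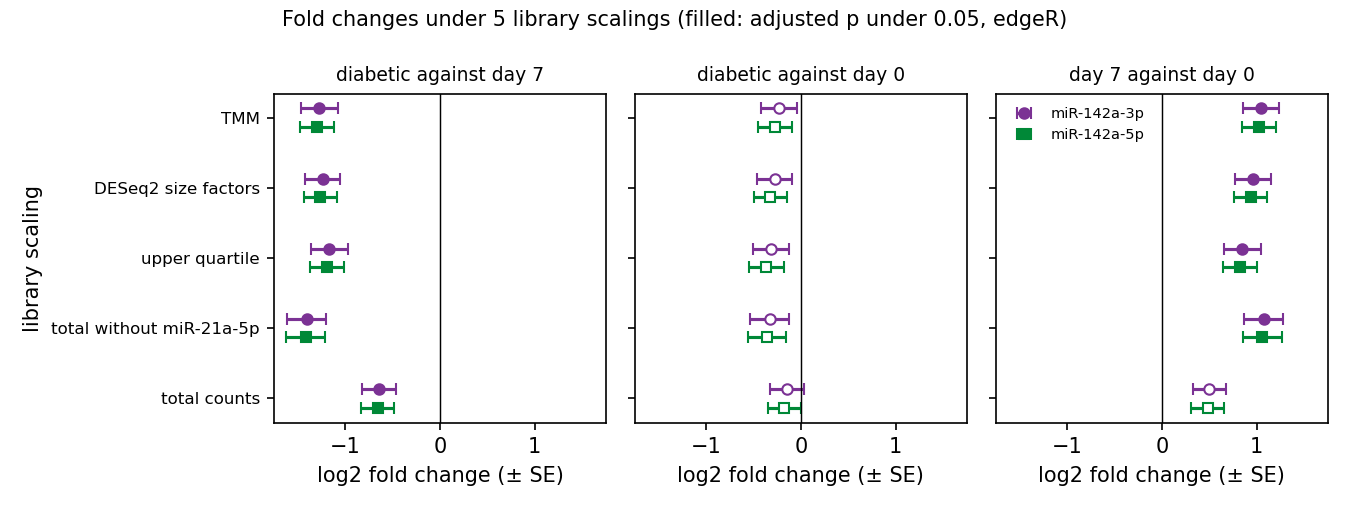
Log2 fold changes (x axis, ± SE) of miR-142a-3p (circles) and miR-142a-5p (squares) in the 3 comparisons under 5 library scalings (y axis), with filled symbols for an edgeR adjusted p under 0.05. Values of the 3p arm run from -1.41 to -0.65 in the left panel, do not pass in the middle panel, and run from 0.50 to 1.08 in the right panel, where both arms lose their call with total counts.

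The arms moved together, with the 5p arm always the more frequent. Counts of the 5p arm per count of the 3p arm were 2.59, 2.48 and 2.17 in the diabetic libraries, 2.41, 2.49 and 2.35 in the day 7 libraries and 2.27, 2.22 and 2.88 in the day 0 libraries. The lowest and the highest ratio, 2.17 in diabetic replicate 3 and 2.88 in day 0 replicate 3, lay in groups whose means were close. As a share of the counts of both arms, the 3p arm took 29.4% ± 1.95 in the diabetic group, 29.3% ± 0.608 at day 7 and 29.1% ± 2.92 at day 0 (SD, n = 3 each).

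Single libraries differed in this share by more than counting error. Day 0 replicate 3 had 25.8% of its counts on the 3p arm (95% Wilson interval 24.0% to 27.6%, which covers counting error only), against 31.6% (29.6% to 33.7%) in diabetic replicate 3. The group means lay closer together than the libraries of a group: the mean log2 ratio of the 3p to the 5p arm was -1.27 ± 0.13 in the diabetic group, -1.27 ± 0.04 at day 7 and -1.29 ± 0.21 at day 0 (SD, n = 3 each). An exact permutation test (two-sided) gave p = 0.9 for the diabetic group against day 7, 0.9 for the diabetic group against day 0 and 1.0 for day 7 against day 0 (n = 3 each), where 0.1 is the smallest p such a test can give. These ratios do not depend on library scaling, and they are ratios of read counts, uncorrected for how well each arm is captured.

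**Figure D3:**
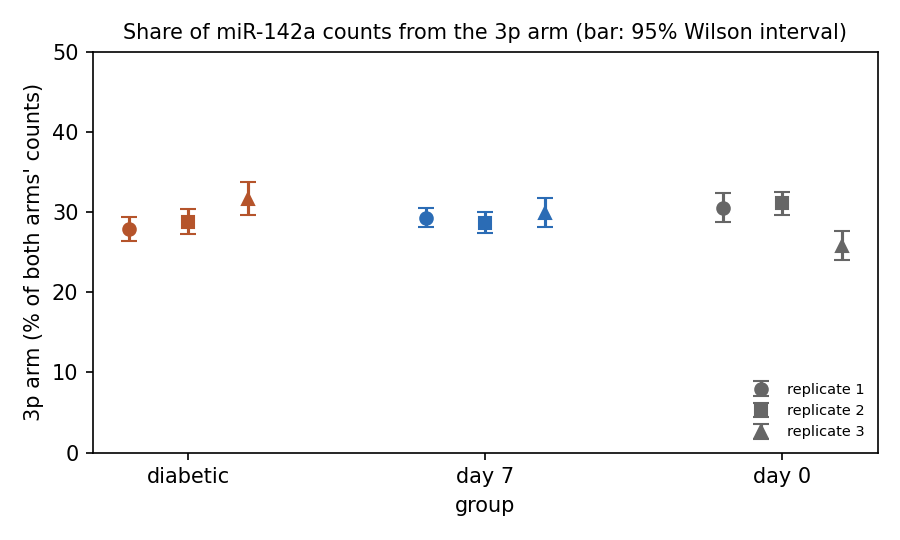
Share of miR-142a counts that come from the 3p arm (y axis, % of the counts of both arms) in each library of the diabetic, day 7 and day 0 groups, with 95% Wilson intervals. The shares run from 25.8% to 31.6%, and the 3 groups overlap.

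Other blood-cell miRNAs were set beside the locus. Of a list of 12 leukocyte miRNAs, 11 were tested. In the diabetic group against day 7, 7 were lower, 0 were higher and 4 did not pass, with a median log2 fold change of -1.27 against -0.02 over all tested rows. At day 7 against day 0, 6 were higher, 0 were lower and 5 did not pass, with a median of 1.09 against 0.08. For the diabetic group against day 0, 0 of the 11 passed, with a median of -0.26 against 0.04. In that comparison 1 passed as higher with upper-quartile scaling, total counts, DESeq2, limma, a mean CPM of at least 10 or the replicate block. The same held without day 7 replicate 3, and 2 passed as higher without the filter. Without the libraries numbered 2 the 7 lower became 2 and the 6 higher became 0, with medians of -1.33 and 1.12. Without day 7 replicate 1 the 6 higher became 3. With total counts 5 were lower and 1 higher, then 4 higher and 1 lower. With TMM, miR-181a-5p alone of the tested rows went the other way in both comparisons. Its log2 fold changes were 0.10 (edgeR adjusted p = 0.659) and -0.36 (edgeR adjusted p = 0.143). The replicate number as a block gave 6 lower, then 8 higher. The summed level of the list was 7070 to 12620 TPM in the diabetic group, 11760 to 12980 TPM at day 7 and 8973 to 11340 TPM at day 0, and miR-342-5p was at 0 counts in all 3 day 0 libraries. miR-146b-5p made up most of the summed level in every library. In diabetic 1 it had 46787 counts, against 11265 of miR-181a-5p and 629 of miR-223-3p. The part of cell composition in the miR-142 result was not tested.

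Markers of other skin cells were counted in the same fit. Of 7 keratinocyte miRNAs, 3 were higher and 0 lower in the diabetic group against day 7 (median 0.53), and 3 were lower and 0 higher at day 7 against day 0 (median -0.59). The 3 lower became 0 without day 7 1, day 7 2 or day 0 3 and 1 without day 0 2, and in both comparisons 0 passed without the libraries numbered 2. Of 4 fibroblast miRNAs, 1 was higher in the diabetic group against day 7 (median -0.08), and 1 was lower at day 7 against day 0 (median -0.23), again with 0 in both without the libraries numbered 2. With total counts 7 of the 7 keratinocyte rows were higher in the first comparison and 6 were lower in the second.

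miR-223-3p, a miRNA of neutrophils and other myeloid cells, was at 83.4 ± 4.21 CPM in the diabetic group, 345 ± 74.6 CPM at day 7 and 108 ± 25.6 CPM at day 0 (SD, n = 3 each). Its log2 fold change was -2.05 in the diabetic group against day 7 and 1.68 at day 7 against day 0, and that of its partner arm miR-223-5p was -2.57 and 1.65, all 4 past the edgeR test, although the last was lost without day 7 replicate 1 (edgeR adjusted p = 0.0599). miR-155-5p, induced in activated lymphocytes and macrophages, had -0.75 (edgeR adjusted p = 0.0478) and 1.05. With total counts it lost both calls, at -0.11 (edgeR adjusted p = 0.768) and 0.50 (edgeR adjusted p = 0.185). Its first call was lost without any single diabetic or day 7 library or day 0 replicate 1 (edgeR adjusted p = 0.0663 to 0.178), and with the replicate number as a block (edgeR adjusted p = 0.0506), and its second without day 7 replicate 1 or 2 or day 0 replicate 2 (0.0578 to 0.0950). miR-146b-5p had values close to those of miR-142a-3p, at -1.27 and 1.07, and passed both tests. Unlike miR-142a-3p, it lost its call for the diabetic group against day 7 with total counts (-0.58, edgeR adjusted p = 0.0779) and with limma on log2(TPM + 1) (-0.65, limma adjusted p = 0.0584). At day 7 against day 0 it lost its call with total counts too (0.52, edgeR adjusted p = 0.134), and with limma (0.52, limma adjusted p = 0.139). miR-146a-5p, its relative with the same seed, passed neither, at -0.08 and 0.41, and both signs turned with total counts.

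miR-342-3p, which an intron of Evl encodes and which lymphoid and myeloid cells express, did not pass in the diabetic group against day 7 (-0.14, edgeR adjusted p = 0.681, with the sign turned by total counts) but was higher at day 7 against day 0 (1.53, edgeR adjusted p = 0.00442). It averaged 45.5 ± 2.77 CPM in the diabetic group and 17.3 ± 3.96 CPM at day 0 (SD, n = 3 each). That comparison missed the threshold (log2 fold change 1.39 ± 0.24, SE, edgeR adjusted p = 0.0569). miR-150-5p, a miRNA of mature lymphocytes, passed neither test, with log2 fold changes of -0.45 and 0.29, whose signs turned with total counts. miR-511-3p, from an intron of the macrophage gene Mrc1, passed for the diabetic group against day 7 (-1.61) and missed the threshold at day 7 against day 0 (1.09, edgeR adjusted p = 0.0523), where it passed without diabetic replicate 1 or 3 (edgeR adjusted p = 0.0298 to 0.0329) and with the replicate number as a block (1.13, edgeR adjusted p = 0.0121).

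Red-cell miRNAs were set beside the locus too. Of 5 erythroid rows tested, 3 passed as lower for the diabetic group against day 7 (median -1.17), and 2 were higher at day 7 than at day 0 (median 1.20). Without the libraries numbered 2, and likewise with total counts, 0 of the 5 passed in either comparison. Upper-quartile scaling gave 1 lower, then 0 higher. In contrast, DESeq2 gave 5 lower, then 3 higher, and a mean CPM of at least 10 gave 5 lower, then 2 higher. Leaving out 1 library moved the 3 lower to between 0 (without day 7 replicate 1) and 4 (without day 0 replicate 3), with 1 left without diabetic 2, diabetic 3, day 7 2 or day 0 2. miR-451a, which is matured by Argonaute 2 without Dicer, averaged 574 ± 194 CPM in the diabetic group, 1546 ± 532 CPM at day 7 and 674 ± 256 CPM at day 0 (SD, n = 3 each), with log2 fold changes of -1.43 and 1.20. miR-144-3p of the same cluster had -1.17 and 1.26. At day 7 against day 0 both lost their call when any of 5 libraries was left out, namely diabetic 2, day 7 1, day 7 2, day 0 2 or day 0 3 (edgeR adjusted p = 0.0550 to 0.237). For the diabetic group against day 7, miR-451a lost its call without day 7 replicate 1 (edgeR adjusted p = 0.0857), and miR-144-3p without diabetic 2, diabetic 3, day 7 1, day 7 2 or day 0 2 (0.0566 to 0.178). miR-486a-5p passed neither test, at -0.69 and 0.60. It passed the first in 4 of 21 alternatives, among them without day 0 replicate 3 (edgeR adjusted p = 0.0426). The summed level of the erythroid list, whose part in the miR-142 result was not tested, was 1049 to 1602 TPM in the diabetic group, 1639 to 2411 TPM at day 7 and 944.3 to 2102 TPM at day 0. miR-486a-3p and miR-486a-5p had nearly equal counts in every library (1443 and 1422 in diabetic 1). These 2 rows may not be separate measurements, and both enter the counts and the sum of the list.

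Ratios of counts within a library, which need no scaling, showed how miR-142a-3p moved relative to 5 of these miRNAs. For each count of miR-223-3p there were 1.63, 1.94 and 2.68 counts of miR-142a-3p in the diabetic libraries, 1.16, 1.17 and 1.34 in the day 7 libraries and 2.25, 1.58 and 1.94 in the day 0 libraries. The day 7 libraries lay below all others. The difference in mean log2 ratio was 0.74 for the diabetic group against day 7 and -0.64 for day 7 against day 0 (exact permutation p = 0.1 each, n = 3 per group, the smallest possible, and 0.3 adjusted over 15 ratios).

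Relative to miR-342-3p all 3 groups were apart. For each of its counts there were 3.31, 3.47 and 4.55 counts of miR-142a-3p in the diabetic libraries, 9.86, 7.21 and 8.06 in the day 7 libraries and 14.0, 10.02 and 11.6 in the day 0 libraries. The differences in mean log2 ratio were -1.15 for the diabetic group against day 7, -1.65 for the diabetic group against day 0 and -0.50 for day 7 against day 0 (exact permutation p = 0.1 each, n = 3 per group, adjusted p = 0.3). The diabetic libraries had the fewest counts of miR-142a-3p for each count of miR-342-3p and the day 0 libraries the most. In edgeR the diabetic group against day 0 had a log2 fold change of -0.23 for miR-142a-3p and 1.39 for miR-342-3p.

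Relative to miR-150-5p, miR-155-5p and miR-451a the ranges overlapped in all 9 comparisons. The differences in mean log2 ratio of miR-142a-3p to these 3 ran from -0.84 to 0.77 (exact permutation p = 0.2 to 1.0, n = 3 per group). With 3 libraries in each group no ratio can reach p under 0.05.

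**Figure D4:**
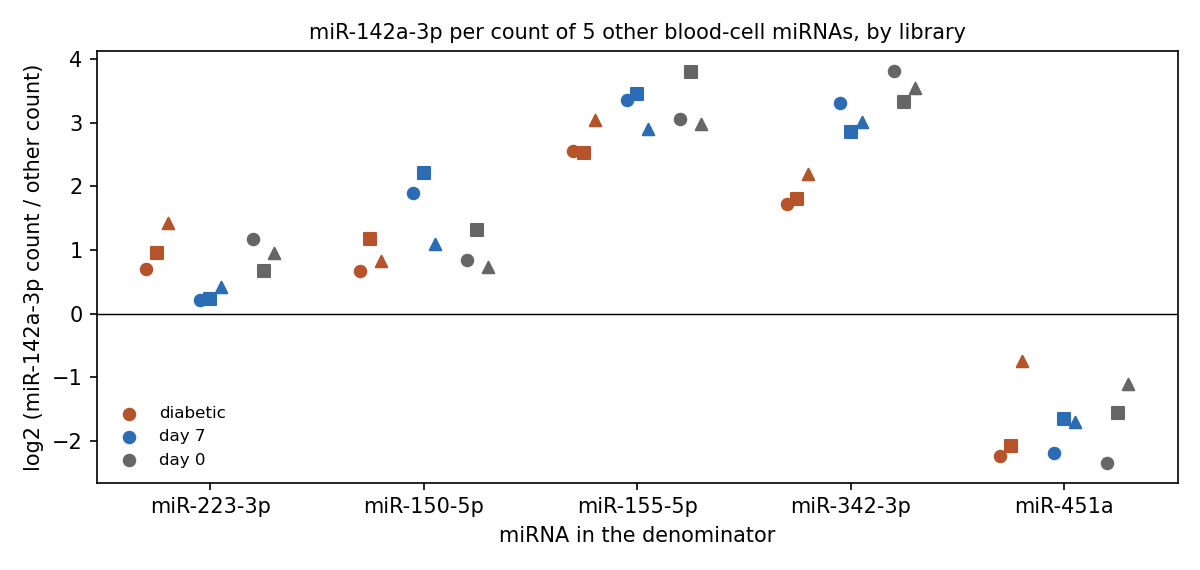
Log2 ratio of the count of miR-142a-3p to that of 5 other blood-cell miRNAs (y axis) in each library, by group, with the denominators along the x axis and circles, squares and triangles for replicates 1, 2 and 3. Against miR-223-3p the 3 day 7 libraries lie below all others, and against miR-342-3p the diabetic, day 7 and day 0 libraries form 3 separate ranges.

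The rows whose profile was most like that of miR-142a-3p were found by the root-mean-square (RMS) difference of log2 CPM over the 9 libraries, each row centred on its own mean. Among 306 other rows with a mean of at least 10 CPM, the nearest were miR-467a-5p and miR-467b-5p, at 0.152 each, which had equal counts in 9 of 9 libraries and cannot be told apart. They were followed by miR-139-5p at 0.165, miR-669a-5p at 0.230 and miR-340-5p at 0.237. For comparison, the partner arm miR-142a-5p was at 0.119 and the median row at 0.656, while miR-223-3p took place 24 at 0.392 and miR-451a place 71 at 0.515.

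These rows differ widely in abundance. miR-340-5p averaged 1034 ± 154 CPM in the diabetic group, 2471 ± 409 CPM at day 7 and 1139 ± 94.8 CPM at day 0, and miR-669a-5p averaged 10.2 ± 3.43, 24.5 ± 5.11 and 8.48 ± 0.289 CPM in the same groups (SD, n = 3 each). miR-467a-5p and miR-669a-5p belong to rodent repeat families hosted by the gene Sfmbt2, and miR-139-5p lies in an intron of Pde2a. The log2 fold changes of the 5 rows ran from -1.30 to -1.24 in the diabetic group against day 7 and from 0.86 to 1.53 at day 7 against day 0. The rows were chosen by their likeness over these same 9 libraries, so fold changes near those of miR-142a-3p follow from the choice and are given as a description.

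**Figure D5:**
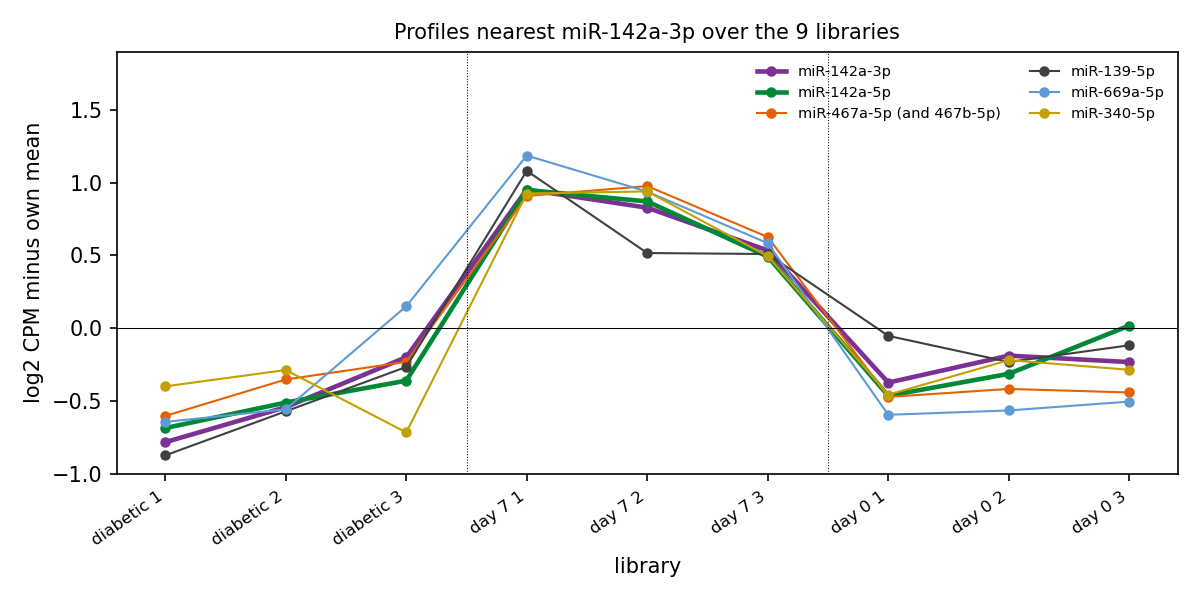
Log2 CPM minus the row's own mean (y axis) of miR-142a-3p, miR-142a-5p and the rows nearest to miR-142a-3p in the 9 libraries (x axis), with lines joining the points of 1 miRNA. The nearest rows were chosen for this likeness, so their shared shape is a description, while miR-142a-5p, a member by name, follows miR-142a-3p at an RMS difference of 0.119.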

How the data were processed

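Total RNA from skin was made into small RNA libraries with NEB adaptors and sequenced as single-end reads on Illumina instruments, per the labels' protocols. The authors deposited 1 table with a read count and a TPM value per row and library, per the file headers. The deposited counts are whole numbers that were not normalized. The deposited TPM equal each count divided by the library total, on the usual TPM scale, which was tested on the table. The submitters' processing notes name Bowtie, DESeq 3.0.3 and mm9, with no role. How reads were trimmed, and the settings for mismatches, several matches and strand, are not given here by any label or header. Columns reading T0 were assigned to the samples titled T7, which alone share the letter T, number by number.

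Counts were tested with edgeR 4.0.16 (R 4.3.3), TMM scaling and 1 fit over 9 libraries. filterByExpr (minimum count 10, minimum total 15) kept 447 rows with 99.98% of counts. SE came from the F statistic. Low counts on the log scale had a prior count of 2, and ratios to other miRNAs had 0.5 added to each count. Exact permutation tests used SciPy 1.17.1 and the fold RNAfold 2.7.2. Alternatives used DESeq2 1.42.0 and limma 3.58.1. The tests were tested on simulated counts. Counts of replicates differed far beyond sampling noise (chi-square over its degrees of freedom 154.7 to 1291). Sequences are RefSeq's (936 of 1129 rows matched by name).

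Deviations from group means correlated between same-numbered libraries at 0.102 to 0.484 (9 of 9 pairs over 0.1). Differently numbered libraries ran from -0.42 to 0.126 (diabetic 1 with day 0 3). Without miR-122-5p and its opposite-strand row, same-numbered pairs ran from 0.015 to 0.36, with 6 of 9 over 0.1. Differently numbered ones then reached 0.159 (day 7 2 with day 0 1), so 0.1 did not separate like from unlike numbers. The numbers may pair the libraries, but no label says so. The main tests had no block, and the replicate number as a block was run only as an alternative. The members, the lists and the rule for nearest rows were chosen with earlier results of these data known. Named were the members, the fixed blood-cell miRNAs and the 5 nearest rows.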

Additional observations from a re-analysis of the deposited data

How the results depend on the processing

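The log2 fold changes of the 3 members kept their sign in every alternative run (21 for each arm of miR-142a, 20 for miR-142b). For the diabetic group against day 7, miR-142a-3p and miR-142a-5p each passed in 20 of 21, and at day 7 against day 0 in 19 and 18. Leaving out any 1 library kept the members' calls in both comparisons, with miR-142a-3p at -1.41 to -1.13 and 0.89 to 1.10 and miR-142a-5p at -1.39 to -1.16 and 0.85 to 1.18 (edgeR adjusted p up to 0.0491). Calls at day 7 against day 0 were lost with total counts, at 0.50 (miR-142a-3p and miR-142b) and 0.48 (miR-142a-5p), and for miR-142a-5p with limma on log2(TPM + 1), at 0.49. All were lost without the 3 libraries numbered 2, an alternative chosen after seeing the data that leaves 2 libraries a group, at -1.24 (miR-142a-3p and miR-142b, edgeR adjusted p = 0.0740) and -1.27 (miR-142a-5p), then 1.08 (edgeR adjusted p = 0.192) and 0.96. The replicate block gave miR-142a-3p -1.29 and 1.05 and changed no member's call; among the other named miRNAs it ended that of miR-155-5p (diabetic against day 7) and brought that of miR-511-3p (day 7 against day 0).

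Rows called for the diabetic group against day 7 numbered 198 by total counts, 194 by limma (170 higher, 24 lower), 5 without the libraries numbered 2 and 49 to 101 with 1 library left out, where 89 were called with TMM. For day 7 against day 0 they numbered 133, 139 (17 higher, 122 lower), 1 and 19 to 68 in that order, and 37 (30 higher, 7 lower) if miR-21a-5p is left out of the totals, where TMM gave 57. For the diabetic group against day 0 they numbered 5 with DESeq2, 10 without the filter, 0 to 2 with 1 library left out, and 1 each with upper-quartile scaling, total counts, limma, a mean CPM of at least 10 and the replicate block, where TMM gave 0. The first count was 52 without diabetic 2, 49 without day 7 1 and 59 without day 7 2, and the second 19 without day 7 1, 23 without day 7 2, 27 without day 0 2 and 22 without day 0 3. As a share of totals that leave out miR-21a-5p, miR-142a-3p differed by -0.0400 percentage points (diabetic against day 7), -0.00624 (diabetic against day 0) and 0.0338 (day 7 against day 0).

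Signs turned for 3 other miRNAs. For the diabetic group against day 7, total counts and limma gave 0.16 and 0.20 for miR-150-5p, 0.51 and 0.50 for miR-342-3p, and 0.53 and 0.54 for miR-146a-5p, which stood at 0.029 with upper-quartile scaling, 0.023 without the filter and 0.037 without the libraries numbered 2. With 1 library left out miR-342-3p ran from -0.20 to 0.062 and miR-146a-5p from -0.26 to 0.056. For day 7 against day 0, total counts and limma gave -0.24 and -0.26 for miR-150-5p and -0.13 and -0.12 for miR-146a-5p. The causes were not tested.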
